A study of Mus musculus with 12 samples.

Results

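The 9 genes described here encode glutamate receptors of motor neurons: the NMDA receptor subunits Grin1, Grin2a, Grin2b, Grin2c, Grin2d, Grin3a and Grin3b, and the metabotropic receptors Grm4 and Grm5. They were taken by gene symbol from a table of 25965 entries, of which 20011 had at least 1 count, and all 9 were found. The table holds RNA sequencing counts of lumbar lower motor neurons, isolated by laser capture from C57BL/6 mice at 5 months of age. The 3 genotypes were wild type (+/+), heterozygous (Q331K/+) and homozygous (Q331K/Q331K) for a knock-in of the change Q331K in TDP-43, an RNA-binding protein linked to amyotrophic lateral sclerosis. Each genotype had 4 libraries, 12 in all, and the comparisons asked which transcripts differ with 1 or 2 mutant copies. The labels name neither the animal behind each library nor its sex, so a p-value here measures the spread between libraries.

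NMDA receptors are ion channels that open when glutamate and a co-agonist, glycine or D-serine, are bound and when depolarization lifts a block by magnesium, and they pass calcium. Each channel needs GluN1, the product of Grin1, joined by GluN2 subunits (Grin2a to Grin2d), which bind glutamate and set the kinetics, or by GluN3 subunits (Grin3a and Grin3b), which bind glycine and lower calcium entry and magnesium block. GluN3B is known for its expression in somatic motor neurons. Metabotropic receptors act through G proteins: mGluR5, from Grm5, drives phospholipase C, and mGluR4, from Grm4, inhibits adenylyl cyclase and usually sits on presynaptic terminals.

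None of the 9 receptor genes passed the test between genotypes, and the intervals below give the differences that remain possible. Of 9 members tested in homozygotes against wild type, 0 passed in edgeR's quasi-likelihood test at a Benjamini-Hochberg adjusted p below 0.05, while 0.00612% of all 16338 genes tested passed, a single gene (Spop). In heterozygotes against wild type and in homozygotes against heterozygotes 0 of 9 members passed, and 0% of all genes did in each. At an unadjusted p below 0.05 in this edgeR fit the members called were also 0 of 9 in each comparison, against 4.82%, 4.1% and 2.97% of all genes in the same order. Some alternatives gave Grin3b a lower unadjusted p in homozygotes against wild type. It was 0.0372 in DESeq2 (adjusted p = 0.82), and 0.0295 in edgeR without wild type replicate 1 (adjusted p = 0.786). DESeq2 called 0 members as well, against 0.0798%, 0.0553% and 0.0184% of all genes in the same order, and limma-voom with quality weights called 0, against 0.00612%, 0% and 0%. In 0 of the 27 tests did the libraries of the compared genotypes fail to overlap, against 3.41%, 3.24% and 2.03% of all genes in the same order.

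RNA of other cell types was present beside that of motor neurons. Total counts per library ran from 60886825 to 83504446, and libraries carry no molecular identifiers, so counts are not independent molecules. The motor neuron genes Chat and Nefh were found in all 12 libraries, at 63.5 to 353 CPM and 3532 to 6947 CPM. CPM is edgeR’s count per TMM-scaled library size, in the usual per-megaread unit. Heterozygous replicate 1 and homozygous replicate 1 stood apart from the other 10 libraries. They held the 5 inhibitory interneuron markers at a summed 3.59 and 0.87 CPM where the rest ran from 170 to 426 CPM, with Slc6a5, the glycine transporter of inhibitory neurons, at 1.35 and 0 CPM. Slc17a6, the glutamate transporter of excitatory interneurons, was at 0.563 and 4.53 CPM there, and from 160 to 323 CPM elsewhere. For 6 of 7 measured motor neuron markers, both libraries lay above the range of the other 10. Over all libraries, 7 of 7 motor neuron markers were higher and 5 of 5 inhibitory markers lower in homozygotes than in wild type, with median log2 differences of 0.62 and -0.89 and 0 called, and the same counts held in heterozygotes with medians of 0.44 and -0.72. Without both libraries, 5 of 7 motor neuron markers were higher in homozygotes (median 0.26) and 3 of 7 in heterozygotes (median -0.06), and 5 of 5 inhibitory markers were lower in each (medians -0.48 and -0.33). The part of these shifts in the receptor results was not tested. Astrocyte RNA (7 markers, summed 533 and 596 CPM in these libraries and 882 to 1487 CPM in the others), myelin RNA (Mbp, 412 to 1445 CPM) and a trace of microglial RNA (Cx3cr1, 0 to 2.59 CPM) were also present. Aldoc made up most of the astrocyte sum and was the marker of the 7 that lay below all other libraries in both, at 467 and 511 CPM, while Aqp4, at 23.5 and 25.95 CPM, was within their range of 8.03 to 30.6 CPM. In such bulk samples, fewer cells of a type and less RNA per cell cannot be told apart. Each difference from wild type below is therefore also given without both of these libraries where that turns it or moves it by over 1.5 times. For genes and lists other than the 9 members, that calculation was added after the data were seen.

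Grin1 and Grin3b were the most abundant NMDA subunit transcripts per length of exon. In heterozygous replicate 1 and homozygous replicate 1, Grin3b lay above the other 10 libraries and Grin1 below. Of all tested genes, 10.3% lay above and 10.6% below in this way. The 250 bases before the RefSeq starts of Grin1 and Grin3b are shown to set these genes side by side. Windows for Grm4 and Grm5, which also lay below, were not available here. The sequences are from RefSeq (GRCm38.p6), are written 5′ to 3′ on the strand of the gene, and have the letters TATAAA in capitals. The RefSeq start of Grin3b lies 9 bases inside the gene as the count table places it, so the last 9 bases shown fall within that interval.
Grin1, chr2:25319188-25319437, minus strand: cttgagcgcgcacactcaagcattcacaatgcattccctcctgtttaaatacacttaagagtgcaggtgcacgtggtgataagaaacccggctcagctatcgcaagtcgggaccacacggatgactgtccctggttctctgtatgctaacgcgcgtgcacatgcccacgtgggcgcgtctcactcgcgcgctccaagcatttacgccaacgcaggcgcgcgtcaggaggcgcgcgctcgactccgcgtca
Grin3b, chr10:79970474-79970723, plus strand: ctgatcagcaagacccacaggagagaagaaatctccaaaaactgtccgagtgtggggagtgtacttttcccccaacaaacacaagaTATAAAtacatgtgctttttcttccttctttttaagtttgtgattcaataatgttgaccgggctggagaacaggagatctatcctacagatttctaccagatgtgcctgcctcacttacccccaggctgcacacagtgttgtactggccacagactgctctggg
The Grin1 window held 27 CG dinucleotides and was 58.8% G and C. The Grin3b window held 2 CG dinucleotides and was 46% G and C. The medians over 32851 RefSeq windows of this kind were 6 CG dinucleotides and 52.4% G and C. TATAAA, searched on both strands, occurred 1 time before Grin3b and 0 times before Grin1, and in 12.4% of all windows. The GC box letters GGGCGG, also searched on both strands, occurred in neither window and in 32.7% of all windows. These letters describe the windows and say nothing of factors bound there.

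Grin1, the subunit that every NMDA receptor needs, was the steadiest member. The gene (ENSMUSG00000026959) is on chromosome 2, minus strand, between 25291181 and 25319187 (GRCm38). Wild type replicates 1 to 4 had 210, 210, 222 and 231 CPM. Heterozygous replicates 1 to 4 had 190, 215, 211 and 235.5 CPM, and homozygous replicates 1 to 4 had 174, 209, 210 and 235 CPM. The lowest library of each mutant genotype was its replicate 1, and the other mutant libraries ran from 209 to 235.5 CPM. Means were 218 ± 10.2, 213 ± 18.5 and 207 ± 25.2 CPM (SD, n = 4 each) in wild type, heterozygotes and homozygotes. Relative to wild type, the log2 difference was -0.08 (SE 0.10, 95% interval -0.29 to 0.14) in homozygotes and -0.04 (interval -0.25 to 0.18) in heterozygotes, the narrowest intervals of the 9 genes. Without the replicate 1 libraries of both mutants these differences were 0.00 and 0.02, with the sign turned in both. The antisense gene E130003G02Rik shares 1307 of the 9700 exon bases of Grin1 (13.5%), and its counts were 0.397 to 0.419 of those of Grin1 in every library. The kits keep no strand, so reads over the shared bases cannot be assigned to either gene.

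**Figure D1:**
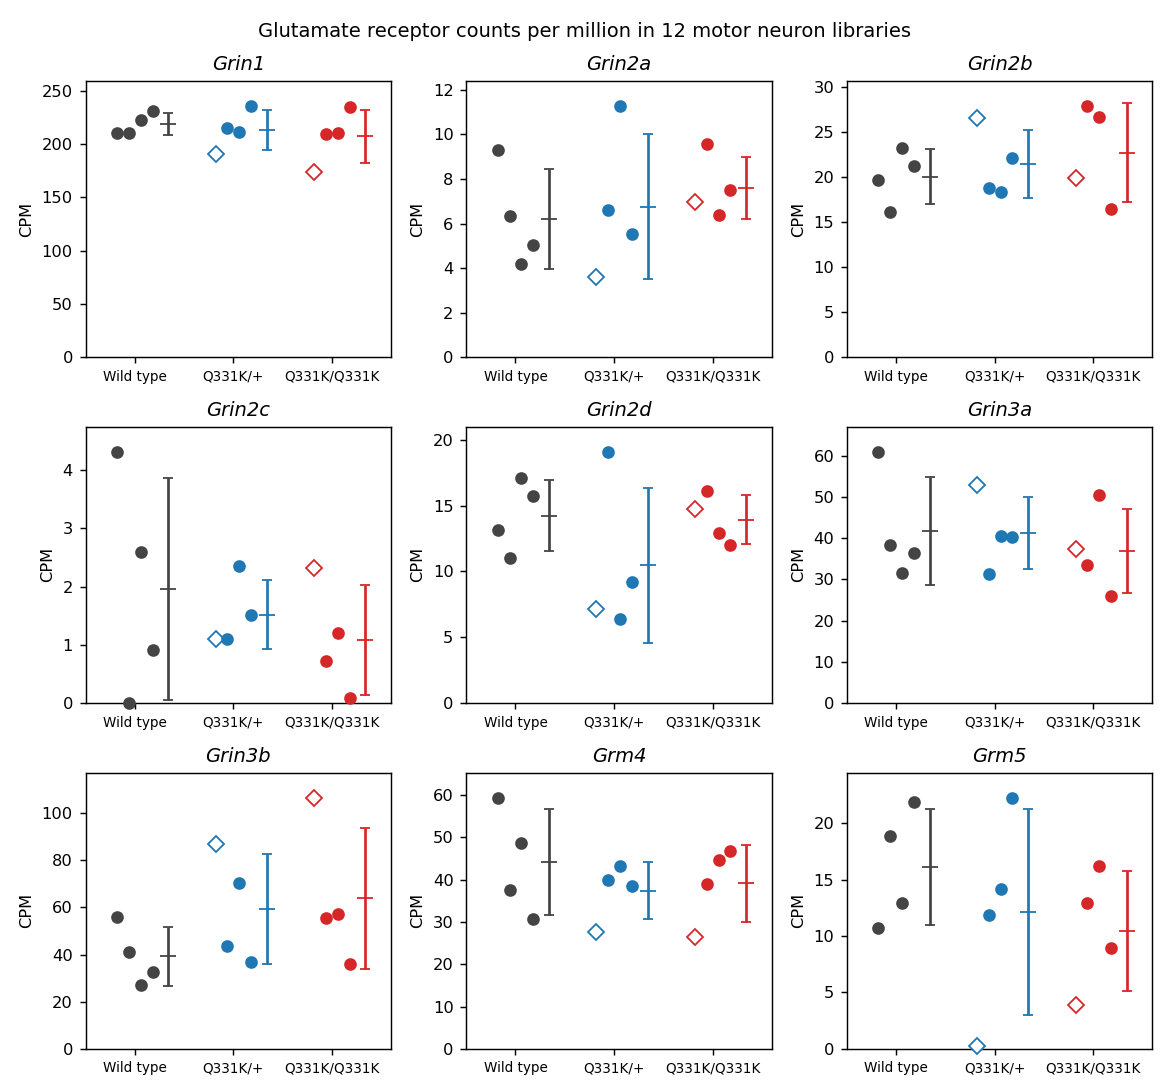
Each panel plots the CPM of 1 receptor gene on a linear axis from 0, with 1 point per library and the mean ± SD (n = 4) beside each genotype. Open diamonds are heterozygous replicate 1 and homozygous replicate 1. Grin3b is highest there (87.0 and 106.5 CPM), Grm5 lowest (0.225 and 3.87 CPM), and the genotypes overlap in all 9 panels.

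The GluN2 transcripts were far lower than Grin1 per length of exon and passed no test. Grin2b, whose subunit gives slow currents and dominates early in development in the forebrain, had the highest mean CPM among them. The gene (ENSMUSG00000030209) lies on chromosome 6, minus strand, from 135729826 to 136173511. Its levels were 19.7, 16.1, 23.3 and 21.2 CPM in wild type replicates 1 to 4, then 26.6, 18.9, 18.4 and 22.2 CPM in heterozygotes and 20.0, 27.9, 26.7 and 16.4 CPM in homozygotes. High and low libraries occurred in every genotype. Homozygotes were at a log2 difference of 0.18 (SE 0.20, interval -0.25 to 0.61) and heterozygotes at 0.10 (interval -0.34 to 0.53) against wild type, the latter at -0.02 without the replicate 1 libraries of both mutants. Grin2d, a GluN2 subunit with very slow deactivation and weak magnesium block, lies on chromosome 7, minus strand, from 45831883 to 45870928 (ENSMUSG00000002771). Its wild type libraries had 13.15, 10.99, 17.1 and 15.75 CPM, its heterozygous libraries 7.18, 19.1, 6.38 and 9.23 CPM, and its homozygous libraries 14.8, 16.1, 12.9 and 12.04 CPM. Of the heterozygous libraries, 3 lay below every wild type library and the other lay above them all. The heterozygote difference from wild type was -0.44 (SE 0.31, interval -1.12 to 0.23), and -0.30 without both replicate 1 libraries. With all 12 libraries the edgeR unadjusted p was 0.179. Leaving out heterozygous replicate 2, the high library, gave -0.90 (edgeR unadjusted p = 0.0017, adjusted p = 0.996). This was the largest fall on leaving out any single library (range -0.90 to -0.26). That library is singled out here for its high level, which by itself favours a small p. Homozygotes were at -0.03 (interval -0.71 to 0.65) against wild type, or -0.06 without those libraries.

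Grin2a, whose subunit gives faster currents and is typical of mature forebrain synapses, was low. The gene (ENSMUSG00000059003) lies on chromosome 16, minus strand, from 9577710 to 9994921, and had 256 to 752 counts per library. Its levels were 9.30, 6.32, 4.17 and 5.04 CPM in wild type replicates 1 to 4, 3.61, 6.63, 11.3 and 5.52 CPM in heterozygotes, and 6.95, 9.56, 6.37 and 7.498 CPM in homozygotes. The heterozygous libraries alone spanned the lowest and the highest of the 12. For Grin2a the log2 difference was 0.29 (SE 0.35, interval -0.47 to 1.05) in homozygotes and 0.12 (interval -0.64 to 0.88) in heterozygotes against wild type, the latter at 0.33 without both replicate 1 libraries. Grin2c, best known from cerebellar granule cells, was near the limit of detection in some libraries. It lies on chromosome 11, minus strand, from 115249169 to 115267243 (ENSMUSG00000020734). It had 326, 0, 175 and 77 counts in wild type, 78, 87, 157 and 112 in heterozygotes and 160, 50, 75 and 6 in homozygotes, or at most 4.31 CPM. The wild type libraries held both the highest and the lowest count. Its interval in homozygotes against wild type, -3.44 to 1.73 on the log2 scale, spanned both a large fall and a large rise. The estimate was -0.86, or -1.56 without both replicate 1 libraries, and in heterozygotes it was -0.37, or -0.24 without them.

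Of the NMDA subunits other than Grin2c, the GluN3 transcript Grin3b had the highest coefficient of variation over 12 libraries (43.8%), and Grin2a had it over the 10 libraries with interneuron RNA (31.2%, with Grin3b at 29.6%). Grin3b (ENSMUSG00000035745) is on chromosome 10, plus strand, between 79970715 and 79977190. Wild type replicates 1 to 4 had 56.1, 41.2, 27.1 and 32.7 CPM. Heterozygous replicates 1 to 4 had 87.0, 43.7, 70.2 and 36.9 CPM, and homozygous replicates 1 to 4 had 106.5, 55.4, 57.2 and 36.1 CPM. The highest 3 values were all mutant, while the lowest mutant libraries lay inside the wild type range. Means were 39.2 ± 12.6, 59.4 ± 23.3 and 63.8 ± 30.0 CPM (SD, n = 4 each). Against wild type, homozygotes were higher by 0.70 on the log2 scale (SE 0.35, interval -0.06 to 1.46), with an edgeR adjusted p = 0.986. Heterozygotes were higher by 0.60 (SE 0.35, interval -0.16 to 1.36), with an edgeR adjusted p = 0.999. Without heterozygous replicate 1 and homozygous replicate 1 these values were 0.34 (interval -0.28 to 0.96) and 0.36 (interval -0.26 to 0.98). Both compare with the same wild type libraries, and homozygotes differed from heterozygotes by 0.10 (interval -0.66 to 0.86), or -0.02 without those libraries.

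The exons of Grin3b overlap those of a neighbour on the other strand. ORF61, which GENCODE release M21 calls Tmem259, covers 1059 of the 3296 exon bases of Grin3b (32.1%). ORF61 had 58.0 to 75.6 CPM in wild type, 62.6 to 86.3 CPM in heterozygotes and 69.4 to 86.1 CPM in homozygotes, and its counts were 0.798 to 2.30 times those of Grin3b. It was at 86.3 and 84.9 CPM in the libraries where Grin3b reached 87.0 and 106.5 CPM, and at 86.1 CPM in homozygous replicate 3, where Grin3b was at 57.2 CPM. Against wild type, the log2 difference of ORF61 was 0.31 in homozygotes (interval 0.03 to 0.58). In heterozygotes it was 0.30 (interval 0.02 to 0.57). The edgeR unadjusted p was 0.0308 and 0.0361 (adjusted p = 0.986 and 0.999). These differences of ORF61 are not given without the replicate 1 libraries of both mutants. How reads over the shared bases were assigned is not known, so the level of Grin3b is uncertain, and their part in it was not tested.

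Grin3a, the other GluN3 subunit, had overlapping levels in the 3 genotypes. It lies on chromosome 4, minus strand, from 49661611 to 49845744 (ENSMUSG00000039579), and its overlap with Ppp3r2 involved few counts, 1.2% of its own. Wild type libraries had 60.9, 38.4, 31.5 and 36.4 CPM, heterozygous libraries 52.8, 31.3, 40.4 and 40.4 CPM, and homozygous libraries 37.3, 33.6, 50.4 and 26.0 CPM. The extremes of the 12 were wild type replicate 1 and homozygous replicate 4. For Grin3a the log2 difference was -0.18 (SE 0.24, interval -0.71 to 0.34) in homozygotes and -0.02 (interval -0.55 to 0.51) in heterozygotes against wild type, the latter at -0.16 without both replicate 1 libraries. Homozygotes differed from heterozygotes by -0.16, or -0.03 without those libraries. A test of Grin3b against Grin3a was not run.

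**Figure D2:**
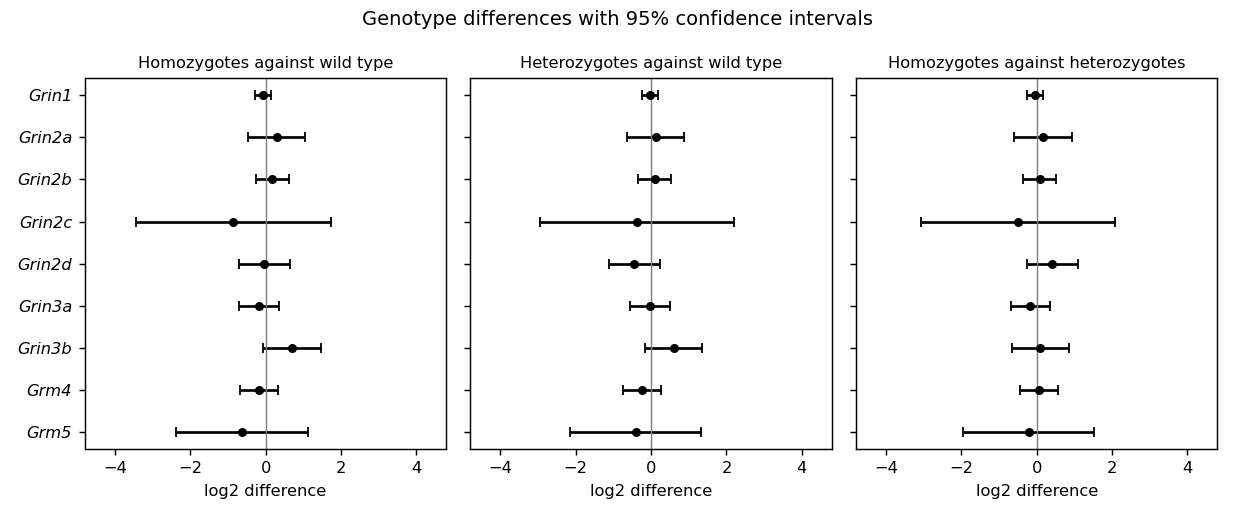
Log2 differences of the 9 genes in each pair of genotypes, from the edgeR model over 12 libraries. Points are estimates, bars are 95% confidence intervals, and the line marks no difference. All 27 intervals include 0, from the narrow Grin1 (-0.29 to 0.14 in homozygotes against wild type) to the wide Grin2c (-3.44 to 1.73).

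Grm5, the phospholipase C-coupled receptor, was the metabotropic member with the widest spread. The gene (ENSMUSG00000049583) is on chromosome 7, plus strand, between 87602544 and 88134907. Wild type replicates 1 to 4 had 10.7, 18.9, 12.9 and 21.9 CPM. Heterozygous replicates 1 to 4 had 0.225, 11.8, 14.2 and 22.3 CPM, and homozygous replicates 1 to 4 had 3.87, 12.9, 16.2 and 8.89 CPM. The library at 0.225 CPM held 16 counts of Grm5, against 676 to 1842 counts in the 10 libraries with interneuron RNA. Means were 16.1 ± 5.18, 12.1 ± 9.10 and 10.5 ± 5.32 CPM (SD, n = 4 each) in wild type, heterozygotes and homozygotes. For Grm5 the log2 difference was -0.62 (SE 0.80, interval -2.37 to 1.13) in homozygotes and -0.41 (interval -2.15 to 1.33) in heterozygotes against wild type. Without both replicate 1 libraries the values were -0.34 (interval -1.03 to 0.35) and 0.00 (interval -0.68 to 0.68), and that of homozygotes against heterozygotes went from -0.21 to -0.35.

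Grm4, the adenylyl cyclase-inhibiting receptor, was about as abundant as Grin3a in CPM. It lies on chromosome 17, minus strand, from 27422387 to 27513341 (ENSMUSG00000063239). Wild type libraries had 59.4, 37.6, 48.8 and 30.8 CPM, heterozygous libraries 27.7, 39.9, 43.3 and 38.6 CPM, and homozygous libraries 26.4, 38.9, 44.7 and 46.7 CPM. Again the lowest library of each mutant genotype was its replicate 1, below all the others. For Grm4 the log2 difference was -0.17 (SE 0.23, interval -0.67 to 0.33) in homozygotes and -0.24 (interval -0.74 to 0.26) in heterozygotes against wild type. Without both replicate 1 libraries these were -0.02 and -0.12.

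Across the 9 genes, 1 had heterozygous replicate 1 and homozygous replicate 1 both above all other libraries, and 3 had them both below. Grin3b was at 87.0 and 106.5 CPM against 27.1 to 70.2 CPM, while 10.3% of all tested genes lay above in this way. Grin1 was at 190 and 174 CPM against 209 to 235.5 CPM, Grm4 at 27.7 and 26.4 CPM against 30.8 to 59.4 CPM, and Grm5 at 0.225 and 3.87 CPM against 8.89 to 22.3 CPM, while 10.6% of all tested genes lay below. Of these, Grm5 had the largest relative gap to the other libraries. The other 5 genes (Grin2a, Grin2b, Grin2c, Grin2d and Grin3a) were within the range in at least 1 of these libraries. These libraries were known to stand apart when the members were chosen, and no test was made between them and the rest. The part of interneuron RNA in the receptor levels was not tested.

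**Figure D3:**
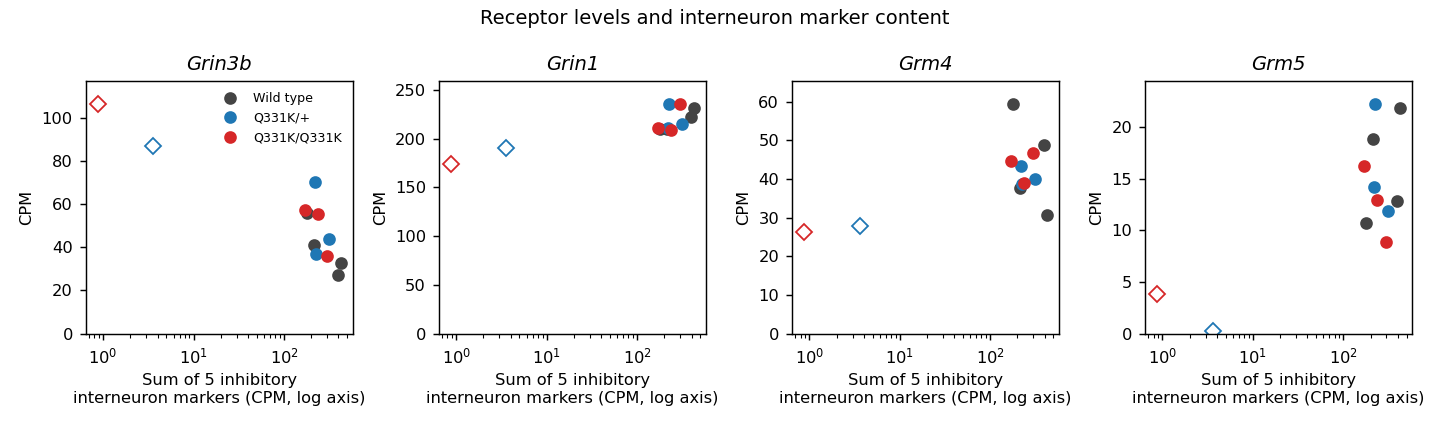
CPM of 4 receptor genes (linear axis from 0) against the summed CPM of 5 inhibitory interneuron markers (log axis), with 1 point per library coloured by genotype. Open diamonds are heterozygous replicate 1 and homozygous replicate 1, at 3.59 and 0.87 CPM of markers. Grin3b is highest and Grin1, Grm4 and Grm5 are lowest in these libraries. The panels show only the members for which these libraries lay outside the range of the others, so this pattern follows from the choice.

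Among the 10 libraries that held interneuron RNA, Grin3b was lowest in wild type replicates 3 and 4, at 27.1 and 32.7 CPM. These libraries had the largest summed inhibitory marker level, 397 and 426 CPM. They also had the lowest motor neuron marker sums of the 10, 4698 and 4284 CPM. Their astrocyte sums (1487 and 1243 CPM) and oligodendrocyte sums (2780 and 1612 CPM) were the highest of the 10. Grin1 was at 222 and 231 CPM there, Grm5 at 12.9 and 21.9 CPM, and Grm4 at 48.8 and 30.8 CPM, the latter its lowest of the 10. The part of interneuron, motor neuron or glial RNA in these levels was not tested. Grin1 varied least over those 10 libraries, with a coefficient of variation of 5.05%, against 29.6% for Grin3b, 18.1% for Grm4 and 30.6% for Grm5. Over all 12 libraries the coefficients were 8.37% for Grin1, 43.8% for Grin3b, 23.2% for Grm4 and 51.3% for Grm5.

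Levels of different genes were compared as CPM per kilobase of merged exons in GENCODE release M21. Grin1 was highest, at 21.9 ± 1.84 CPM per kilobase (mean ± SD over 12 libraries), followed by Grin3b at 16.4 ± 7.19, Grm4 at 6.73 ± 1.56 and Grin3a at 3.25 ± 0.821. Then came Grin2d at 1.94 ± 0.592, Grm5 at 1.26 ± 0.645, Grin2b at 0.863 ± 0.160, Grin2a at 0.382 ± 0.127 and Grin2c at 0.301 ± 0.241 CPM per kilobase. By this length Grin1 was above Grin3b in 10 of 12 libraries, with Grin3b higher in the pair of interneuron-poor libraries. Per kilobase of coding sequence Grin1 was above Grin3b in every library, at 60.4 to 81.9 CPM against 9.0 to 35.4 CPM. Per kilobase of exon, Grin3b was above Grm4, and Grm4 above Grin3a, in 12 of 12 libraries, although their ranges across libraries overlapped. Of all neighbours in this order, Grin2b and Grin2a were the pair whose ranges did not overlap (0.650 to 1.12 against 0.201 to 0.628 CPM per kilobase). Grin2d exceeded Grm5 in 9 of 12 libraries, and Grin2a exceeded Grin2c in 8 of 12, so these neighbours did not differ beyond their spread. With the longest coding sequence as the length, the first 4 places and the last 2 were the same, but Grin2b (4.82 ± 0.895 CPM per kilobase) moved above Grm5 and Grin2d (3.25 ± 0.993) moved below it. The annotated starts and ends were those of GENCODE for 4 of the 9 genes, so the lengths are approximate.

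As a share of the summed NMDA subunit level per kilobase of exon, the GluN3 pair was far above the GluN2 transcripts, mostly through Grin3b. In wild type the GluN3 pair made up 36.35 ± 7.81% and the 4 GluN2 genes 8.91 ± 1.875%, with Grin1 at 54.7 ± 6.78% (SD, n = 4). Within the wild type GluN3 pair, Grin3b held 28.3 ± 6.33% of the NMDA sum and Grin3a 8.08 ± 1.60%. The level of Grin3b, and so of these shares, is uncertain because its exons overlap those of ORF61. In heterozygotes these shares were 45.1 ± 10.9%, 6.865 ± 2.25% and 48.1 ± 9.29%, and in homozygotes 45.8 ± 12.1%, 7.76 ± 1.11% and 46.4 ± 11.8%. The Grin3b share ranged from 21.7% in wild type replicate 3 to 56.5% in homozygous replicate 1. Over the other 10 libraries it stayed between 21.7% and 43.3%. Per coding length the GluN3 share was smaller, 22.55 ± 5.815% in wild type, and the GluN2 share was 9.02 ± 1.265%. By that length Grin3b was about level with Grin3a in wild type, at 1.06 ± 0.104 times its level. The GluN3 share exceeded that of GluN2 in all 12 libraries by either length. Among GluN2 transcripts in wild type, Grin2d held 58.6 ± 7.46%, Grin2b 22.2 ± 2.30%, Grin2a 9.73 ± 3.79% and Grin2c 9.43 ± 8.997% per kilobase of exon. Per coding length Grin2b came first with 45.1 ± 3.31% and Grin2d second with 35.8 ± 4.13%, so the leading GluN2 transcript depends on the length used. These are shares of RNA, not of protein or of assembled receptors.

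**Figure D4:**
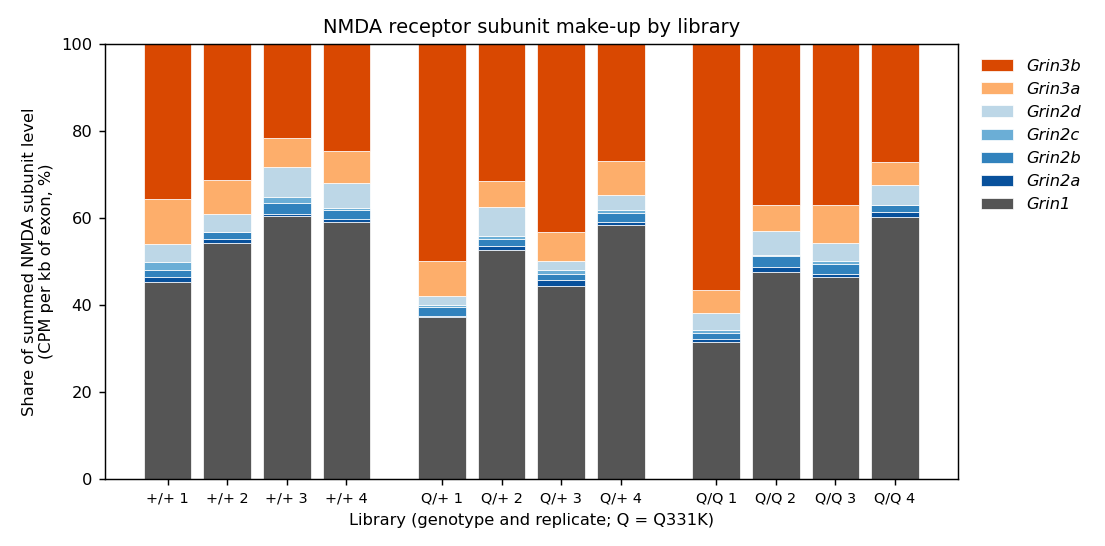
Share of each NMDA subunit in the summed level per kilobase of exon, with 1 bar per library (+/+ wild type, Q/+ heterozygous, Q/Q homozygous, numbered by replicate). Grin1 (grey) and Grin3b (dark orange) fill most of each bar, and Grin3b reaches 49.9% in heterozygous replicate 1 and 56.5% in homozygous replicate 1.

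The ratio of Grin3b to Grin3a was higher in most mutant libraries. Per kilobase of exon, Grin3b stood at 3.43, 3.99, 3.21 and 3.34 times Grin3a in wild type replicates 1 to 4. The ratios were 6.14, 5.19, 6.47 and 3.41 in heterozygotes and 10.6, 6.14, 4.23 and 5.18 in homozygotes. Per coding length they were 0.97 to 1.21 in wild type, 1.035 to 1.97 in heterozygotes and 1.285 to 3.23 in homozygotes. The size of the ratio thus depends on the length used, while the order of the libraries does not. All 4 homozygous libraries and 3 of 4 heterozygous libraries lay above every wild type library. The fourth heterozygous library lay inside the wild type range. Neither gene alone separated the genotypes, and how often ratios of other genes separate in this way was not counted. The ratio was formed after the values were seen and from members whose results were known, so it has no test, and the exon overlap with ORF61 may enter it. For Grin2b over Grin2a the ratios per kilobase were 1.53 to 4.03 in wild type, 1.18 to 5.32 in heterozygotes and 1.58 to 3.02 in homozygotes, which overlapped.

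Among the other metabotropic receptors, 4 of 6 passed the filter on low counts and 0 passed the test in any comparison. Grm8, of the same class as Grm4, was at a log2 difference of -1.02 (SE 0.62) in homozygotes against wild type, with 0.479 CPM in homozygous replicate 1, and at -0.65 without both replicate 1 libraries. Grm3, a receptor that inhibits adenylyl cyclase, was at 0.32 (SE 0.56), or 0.16 without them. Grm2 and Grm6, at no more than 2.42 and 0.016 CPM in any library, did not pass the filter. The median of the 4 tested was -0.23, beside -0.0032 for all genes.

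Of 21 scaffold and kinase partners of the postsynaptic density, 0 passed in any comparison, with 9 higher, 12 lower and a median log2 difference of -0.11 in homozygotes against wild type. Without both replicate 1 libraries 12 were higher and 9 lower, with a median of 0.01. Camk2b, the beta chain of calcium/calmodulin kinase II, had means of 166 ± 8.67 CPM (wild type) and 150 ± 14.9 CPM (homozygous). Dlgap1, which links PSD-95 to Shank proteins, averaged 28.45 ± 4.79 and 34.6 ± 5.06 CPM (SD, n = 4 each). Neither passed (edgeR adjusted p = 0.986 for each). In heterozygotes against wild type the partners had 10 higher and 11 lower, with a median of -0.01, or 0.01 without both libraries.

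Of 12 genes in group I metabotropic signalling, 0 passed, with 6 higher, 6 lower and a median of 0.00 in homozygotes against wild type. Plcb1, a phospholipase C, had means of 64.1 ± 19.98 CPM (wild type) and 89.4 ± 18.6 CPM (homozygous), and was highest in the interneuron-poor libraries (128 and 116 CPM). Prkca, protein kinase C alpha, averaged 13.8 ± 2.83 and 19.05 ± 5.70 CPM. Gna11, a G protein alpha subunit that activates phospholipase C, averaged 78.5 ± 5.26 and 89.2 ± 6.16 CPM (SD, n = 4 each). In heterozygotes 8 of the 12 were higher and the median was 0.12. Without both replicate 1 libraries the medians were -0.03 in homozygotes and -0.03 in heterozygotes, where 6 of 12 were higher.

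Of 11 co-agonist and glutamate handling genes, 0 passed, with 3 higher, 8 lower and a median of -0.27 in homozygotes and 2 higher, 9 lower and a median of -0.38 in heterozygotes against wild type. Glul, glutamine synthetase, was at 213 and 211 CPM in the interneuron-poor libraries against 86.9 to 122.5 CPM in the others, and its log2 difference in homozygotes against wild type was 0.48, or 0.20 without them. The median of the list in homozygotes was -0.15 without them, and in heterozygotes -0.29. Dao, which breaks down D-serine, had 0 to 56 counts per library.

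The genes whose levels ran most like those of the 4 shifted members differed with the libraries used. Likeness was the Pearson correlation of log2 CPM, for the first 3 genes in each case. It is a description with no p, because 2 libraries set apart can carry it over 12. Also, the first 3 are picked from all 16338 genes, which favours high values. The 10 libraries are part of the 12, so shared genes are not independent support. Over 12 libraries Grin3b ran with Crip2 (0.971), BC017643 (0.965) and Gnao1 (0.952), and over the 10 libraries with interneuron RNA with Gnao1 (0.960), Crip2 (0.950) and Kcnj14 (0.944), so 2 of 3 were shared. Grm5 ran with Impa2 (0.989), Arhgef3 (0.986) and Trank1 (0.985) over 12 libraries, all near 0 in heterozygous replicate 1 (0 to 0.69 CPM), and with Eif4e3 (0.918), Rapgefl1 (0.903) and Zfp963 (0.886) over 10. Grm4 ran with Ncam1 (0.900), Mast4 (0.896) and Dcaf12 (0.890) over 12 libraries and with Sqstm1 (0.918), Ttc7 (0.913) and Hadhb (0.901) over 10, and for both metabotropic genes 0 of 3 were shared. Grin1 ran with E130003G02Rik (0.988), whose exons overlap its own, 4933433P14Rik (0.973) and Spin1 (0.955) over 12 libraries, and with Ston2 (0.986), E130003G02Rik (0.984) and Gm11747 (0.952) over 10. Ston2 and Gm11747 were at no more than 1.79 and 0.452 CPM in any library. For the 9 members together, the 3 most similar genes had correlations from 0.817 to 0.989 over 12 libraries and from 0.861 to 0.986 over 10.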

How the data were processed

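RNA was sequenced from 12 libraries of laser-captured lumbar motor neurons, 4 per genotype, and genotypes were taken from the sample titles. The authors deposited unnormalized read counts for each gene, with 1 column per library. Per the submitters' processing notes, the authors trimmed reads with Trim Galore 0.4.3 and aligned them with HISAT2 2.0.5 to GRCm38. The counting program, annotation release and strand setting are not given in the sources used here. Per the labels, a template-switching kit and a transposase kit were used, which keep no strand.

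Genes were kept by filterByExpr of edgeR 4.0.16 (R 4.3.3), leaving 16338, scaled by TMM and fitted by quasi-likelihood to all 12 libraries, grouped by genotype. P-values were two-sided and adjusted over all 16338 genes by Benjamini-Hochberg, with a threshold of 0.05. Log2 CPM for correlations used a prior count of 2. Alternatives were DESeq2 1.42.0, limma-voom with quality weights (limma 3.58.1), other scaling and filters, the replicate number as a block, the 8 libraries compared, and leaving libraries out. Intervals are 95% confidence intervals. Identifiers and exon lengths are from GENCODE release M21, matched by symbol and chromosome. The members and gene lists were chosen with earlier results of these data known. Named genes were the members and, from each other list, any gene past the threshold and the 3 with the lowest p in the homozygote comparison with wild type. Some genes that this rule names are not reported here. The 3 genes most like a member were found for all 9 and are named for the 4 that lay outside the range of the other libraries. Slc18a3, 1 of 8 motor neuron markers, was not analysed here.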

Additional observations from a re-analysis of the deposited data

How the results depend on the processing

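No member was called under any of the 20 alternatives, and the 27 member differences kept their sign in 502 of 540 recomputed values. Of the 27 differences, 10 kept their sign under all 20 alternatives. Some alternatives left out only a library of a genotype not compared, and so could move a difference little. The count over all genes in homozygotes against wild type, 1 in edgeR, was 13 in DESeq2, and 0 with no filter, with only the 8 libraries compared, without heterozygous replicate 1 and homozygous replicate 1 together, and on leaving out any single library. DESeq2 called 9 genes in heterozygotes against wild type and 3 in homozygotes against heterozygotes, where edgeR and limma-voom with quality weights called 0. The cause of these shifts was not tested. Without heterozygous replicate 1 and homozygous replicate 1, the sign turned for Grin1 in homozygotes (0.0011) and heterozygotes (0.018), Grin2b (-0.018) and Grm5 (0.0013) in heterozygotes, each against wild type, and Grin3b between the mutants (-0.022). With limma-voom and its quality weights, which change the method and the weighting of samples together, it turned for Grin2c in homozygotes (0.45) and heterozygotes (1.94), Grin3a in heterozygotes (0.0089) and Grm5 between the mutants (0.051). With the replicate number as a block it turned for Grin2c in heterozygotes (0.39) and Grm5 between the mutants (0.15), and the block changed no call of a member. With this block Grin3b in homozygotes against wild type was at 0.62 (edgeR unadjusted p = 0.0105, adjusted p = 0.426). Libraries of the same number deviated together at a correlation above 0.1 in 3 of 12 pairs (-0.053 to 0.454). All 3 were pairs of replicate 1 libraries (0.106, 0.114, and 0.454 between the 2 mutants). The 3 of 12 libraries that correlated best with their own number were also the replicate 1 libraries. Pairs of the other numbers ran from -0.053 to 0.098. The labels state no pairing, and the numbers were not taken as pairs.

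Leaving out single libraries, or both replicate 1 libraries of the mutants, turned the sign of some of the 27 differences. In homozygotes against wild type the ranges were -0.15 to 0.0043 for Grin1, -0.13 to 0.073 for Grin2d, -0.37 to 0.063 for Grin3a and -0.31 to 0.012 for Grm4. In heterozygotes against wild type they were -0.079 to 0.018 for Grin1, -0.24 to 0.39 for Grin2a, -0.021 to 0.18 for Grin2b, -0.78 to 0.37 for Grin2c, -0.16 to 0.22 for Grin3a and -0.87 to 0.0013 for Grm5. Between the mutants they were -0.11 to 0.041 for Grin1, -0.040 to 0.53 for Grin2a, -0.032 to 0.26 for Grin2b, -0.26 to 0.34 for Grin3b, -0.052 to 0.22 for Grm4 and -0.62 to 0.25 for Grm5. Others kept their sign on leaving out libraries but varied in size. In homozygotes against wild type these were 0.14 to 0.56 for Grin2a, 0.065 to 0.305 for Grin2b, -1.56 to -0.11 for Grin2c and -0.91 to -0.34 for Grm5, and in heterozygotes -0.90 to -0.26 for Grin2d and -0.37 to -0.060 for Grm4. Between the mutants they were -1.32 to -0.10 for Grin2c, 0.235 to 0.88 for Grin2d and -0.35 to -0.02 for Grin3a. Under all 20 alternatives the Grin3b estimate was above wild type, at 0.34 to 0.93 in homozygotes and 0.36 to 0.825 in heterozygotes. Grin2c had 6 to 326 counts in 11 libraries and 0 in the other, which limits its precision.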
